A study of Mus musculus with 556 samples.

Results

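Zygotes kept in aphidicolin and zygotes kept in DMSO were compared by single-cell DamID with Dam-lamin B1. These were all cells whose titles name a zygote with Dam-lamin B1 and either treatment: 9 zygotes in aphidicolin and 11 in DMSO. They make up 20 of the 512 cells in the deposited table and 20 of the 556 samples of the series, which covers oocytes, preimplantation embryos and embryonic stem cells. The comparison asks how contacts between the genome and the nuclear lamina look in 1-cell embryos when DNA replication is blocked, as against the solvent alone.

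The nuclear lamina is a protein meshwork under the inner nuclear membrane, with B-type and A-type lamins as its main components. Large, gene-poor stretches of the genome that touch it are called lamina-associated domains (LADs). Genes inside LADs are mostly silent or weakly expressed, and LADs tend to replicate late in S phase. DamID tethers Dam, a bacterial enzyme that methylates adenine in GATC, to a protein of interest, here lamin B1, so that GATC sites near the lamina become marked. The methylated DNA is then amplified and sequenced. Dam without a partner methylates accessible chromatin throughout the nucleus and serves as the background. Aphidicolin is a fungal compound that inhibits the replicative DNA polymerases and stalls replication forks, and DMSO is the solvent it is usually dissolved in. The zygote holds a maternal and a paternal pronucleus and passes through its first S phase before the first cleavage.

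All 20 zygotes carry the strain label of a C57BL/6 female crossed with a CAST/EiJ male. The protocol describes the mothers of such crosses as F1 females of CBA and C57BL/6J, aged 5 to 8 weeks. The protocol's injection mix held mRNA for Dam-lamin B1 with an auxin-inducible degron, 250 ng/µl of TIR1 mRNA and 50 ng/µl of membrane-EGFP mRNA. The labels give neither the Dam-lamin B1 dose nor the dose or timing of aphidicolin for these zygotes. A dose of 3 µg/ml is stated for 2-cell embryos, which are not described here. For reference, 19 untreated zygotes with Dam-lamin B1 (5 ng/µl mRNA) and 46 untreated zygotes with Dam alone (20 ng/µl mRNA) were used, injected 21 h after hCG and kept free of auxin for 6 to 8 h. No zygotes with Dam alone under aphidicolin or DMSO were analysed here, so the background of accessible chromatin comes from untreated zygotes. The labels name no mother, litter or collection day, so p-values measure the spread between these zygotes, and a treatment cannot be told apart from an unnamed batch.

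The deposited values are ratios of observed to expected reads (OE) in bins of 100 kb on the 19 autosomes of build mm10. An OE of 1 means observed reads equal to the expected number, and a bin at 1 or more is called a contact below. Depth was recovered from the steps of the ratios. It ran from 36934 to 149622 reads in the aphidicolin zygotes, with a mean of 103260, and from 30293 to 236175 reads in the DMSO zygotes, with a mean of 134421. These are the smallest depths that the steps allow. The untreated zygotes were shallower, with a mean of 59252 reads.

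Dam can mark DNA only where GATC occurs, which sets the finest scale of the assay. The 250 bases before the start of Cntnap2 (chr6:45059811-45060060, plus strand) and of Gapdh (chr6:125165774-125166023, minus strand) are shown as examples. They are promoters of a long neuronal gene and a housekeeping gene among the 31 genes plotted below. They are from RefSeq, build GRCm38.p6, 5′ to 3′, with GATC in capitals.
Cntnap2: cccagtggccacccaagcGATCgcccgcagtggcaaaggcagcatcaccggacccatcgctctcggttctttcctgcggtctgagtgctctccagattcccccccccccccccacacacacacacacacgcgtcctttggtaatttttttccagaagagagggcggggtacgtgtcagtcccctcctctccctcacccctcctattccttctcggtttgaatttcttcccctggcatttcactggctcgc
Gapdh: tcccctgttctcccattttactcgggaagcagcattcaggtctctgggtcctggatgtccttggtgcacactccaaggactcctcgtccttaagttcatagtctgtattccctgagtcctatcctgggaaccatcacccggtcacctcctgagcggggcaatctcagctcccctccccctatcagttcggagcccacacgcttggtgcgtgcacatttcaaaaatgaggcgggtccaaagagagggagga
GATC, which reads the same on both strands, was found 1 time in the Cntnap2 window and 0 times in the Gapdh window. Of 32851 promoter windows of 250 bases, 41.9% held at least 1 GATC. A match is a description of the sequence, and contacts below are read over 100 kb bins, each holding the midpoint of the gene named.

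LADs held more lamin B1 signal than the rest of the genome in every zygote of both treatments, and no difference in this contrast beyond the spread between zygotes was found. The LAD contrast is the log2 of the mean OE in bins that lie in LADs of both blastocyst lineages, inner cell mass (ICM) and trophectoderm (TE), over the mean OE in bins outside both lists. The deposited lists held 460 ICM LADs and 503 TE LADs. They placed 12082 bins in both lists (called shared LADs here), 7688 in neither, 1976 in the ICM list alone and 2276 in the TE list alone. These LADs were mapped in blastocysts, not in zygotes. In aphidicolin the contrast ran from 0.46 to 1.15 with a median of 0.62. In DMSO it ran from 0.09 to 1.35 with a median of 0.54. The groups overlapped, and every aphidicolin value lay inside the DMSO range. The means were 0.71 ± 0.25 (SD, n = 9) with aphidicolin and 0.68 ± 0.47 (SD, n = 11) with DMSO, a difference of 0.04 (95% interval −0.33 to 0.40, from the shifts the permutation test does not reject; exact permutation p = 0.837, Benjamini-Hochberg adjusted p = 0.837 over 3 LAD contrast tests). Of the 9 aphidicolin zygotes, 3 lay above the DMSO mean.

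No difference from untreated zygotes passed the test either, and Dam alone gave the opposite sign. The 19 untreated zygotes had a mean contrast of 0.64 ± 0.26 (SD). Aphidicolin zygotes differed from them by 0.07 (95% interval −0.15 to 0.28, exact permutation p = 0.517, adjusted p = 0.837), and DMSO zygotes by 0.03 (permutation p = 0.803, adjusted p = 0.837). With Dam alone the mean was −0.74 ± 0.15 (SD, n = 46), and the highest value was −0.40. All 9 aphidicolin and all 11 DMSO zygotes lay above 0 and above every zygote with Dam alone.

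**Figure D1:**
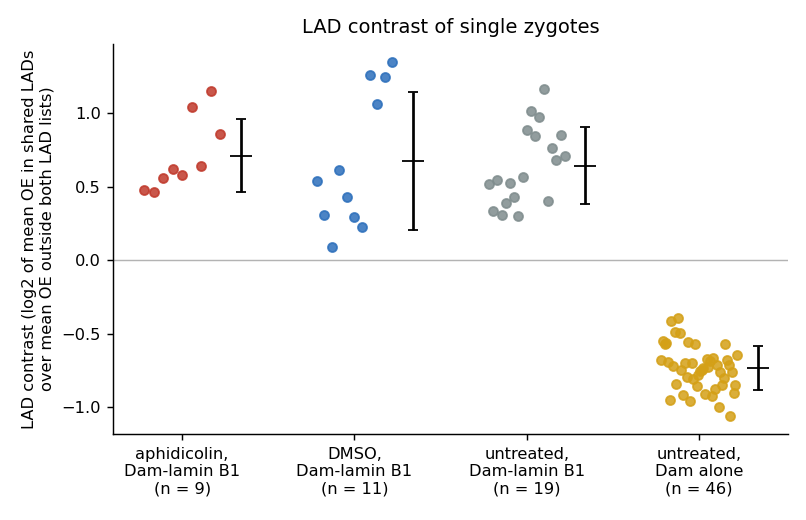
LAD contrast (y axis, log2 of the mean OE in shared LADs over the mean OE outside both lists) of each zygote, 1 point per zygote, in 4 groups, with the mean and SD as a bar beside the points. The aphidicolin points run from 0.46 to 1.15 inside the DMSO range of 0.09 to 1.35, and all Dam-alone points lie at or below −0.40.

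The zygotes in DMSO covered a wider range than those in aphidicolin, although a test of the spread did not pass. The 11 DMSO values left a gap of 0.45 without a zygote, with 7 zygotes between 0.09 and 0.62 and 4 between 1.07 and 1.35. Of the aphidicolin zygotes, 4 lay inside that gap, 4 below it and 1 above it. Of the untreated zygotes, 8 lay inside it, 10 below and 1 above. The mean absolute deviation from the group median was 0.18 with aphidicolin and 0.38 with DMSO (exact permutation p = 0.0841, a test chosen after the values were seen). Without the 5 zygotes under 100000 reads the exact permutation p was 0.0204. That cut removes aphidicolin replicates 6, 7 and 8 and DMSO replicates 2 and 4. Aphidicolin replicates 6 and 8 had the highest contrasts of their group, 1.05 and 1.15, so their removal itself narrows the aphidicolin range. As a description, Pearson's r between log2 depth and contrast was −0.67 over the 9 aphidicolin zygotes and 0.15 over the 11 DMSO zygotes. The 4 DMSO zygotes above the gap held 124802 to 209069 reads and the 7 below it 30293 to 236175, and the part of depth in the spread was not tested.

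The same 4 DMSO zygotes stood apart in some other features of the map. These are given as a description because the zygotes were picked by their contrast. Their lag 1 autocorrelation, which measures how alike neighbouring bins are, was 0.482 to 0.571, against 0.179 to 0.434 in the other 7. Their r with the mean profile of zygotes with Dam alone was −0.242 to −0.159, against −0.0139 to 0.192. At the distal ends of chromosomes, the log2 ratio of the last 10 Mb to the rest was −0.55 to −0.33, against −0.18 to −0.05 in the other 7. In further measures the 4 overlapped the other 7. Their r with the mean untreated zygote was 0.325 to 0.471, against 0.147 to 0.367. Their r with 2-cell embryos was 0.104 to 0.221, against 0.163 to 0.237.

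Shared LADs held more lamin B1 signal than the rest of the genome under both treatments. Their mean OE was 1.22 ± 0.055 with aphidicolin, 1.19 ± 0.118 with DMSO and 1.201 ± 0.062 in untreated zygotes, and 0.823 ± 0.045 with Dam alone. Outside both lists it was 0.750 ± 0.095, 0.757 ± 0.165 and 0.774 ± 0.099, and 1.37 ± 0.074 with Dam alone. Contacts covered 50.4% of shared-LAD bins with aphidicolin and 49.8% with DMSO, and 28.5% and 28.1% of the bins outside both lists. Bins found in LADs of a single lineage took values between these. ICM-only bins averaged 0.979 ± 0.028 with aphidicolin and 0.950 ± 0.035 with DMSO. TE-only bins averaged 1.00 ± 0.053 and 0.976 ± 0.072.

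LAD length and gene content graded the signal in both groups. Shared LADs of at least 5 Mb averaged 1.31 ± 0.081 with aphidicolin and 1.25 ± 0.163 with DMSO, while shared LADs under 1 Mb averaged 0.928 ± 0.081 and 0.948 ± 0.097. The 13370 bins without the midpoint of a protein-coding gene averaged 1.14 ± 0.041 and 1.09 ± 0.087. The 365 bins with 6 or more genes averaged 0.834 ± 0.086 and 0.824 ± 0.179. With Dam alone the order was the other way round, at 0.850 ± 0.038 and 1.63 ± 0.140. The long-LAD contrast differed between treatments by 0.07 (95% interval −0.33 to 0.47) and the short-LAD contrast by −0.04 (95% interval −0.31 to 0.24), with exact permutation p = 0.724 and 0.760.

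The step at LAD borders was shallow in both groups. Over 113 borders with 500 kb of shared LAD on one side and 500 kb outside both lists on the other, aphidicolin zygotes went from 1.00 ± 0.11 at 450 kb inside to 0.793 ± 0.083 at 450 kb outside. DMSO zygotes went from 1.11 ± 0.12 to 0.795 ± 0.156. Dam alone rose across the border instead, from 0.916 ± 0.089 to 1.39 ± 0.118. The border step, the log2 of the mean OE in the 3 bins inside over the 3 bins outside, was measured over 126 borders. It was 0.26 ± 0.13 with aphidicolin and 0.32 ± 0.30 with DMSO, a difference of −0.06 (95% interval −0.29 to 0.16, exact permutation p = 0.579).

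**Figure D2:**
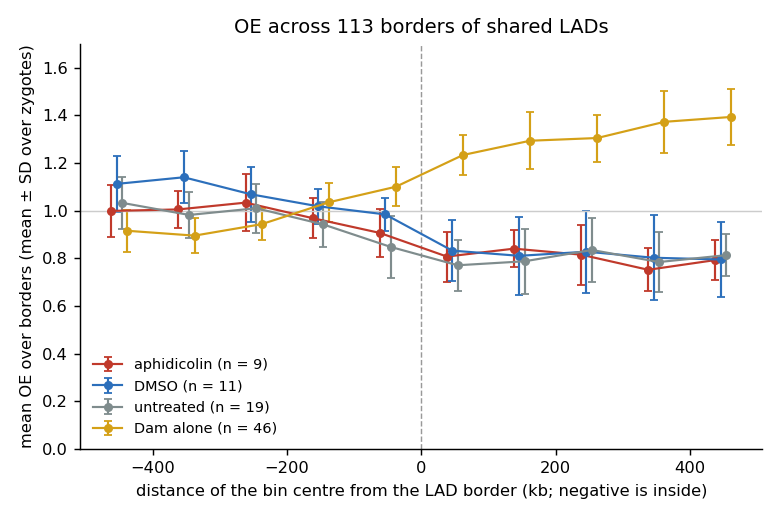
Mean OE (y axis) of bins by distance of the bin centre from the border of a shared LAD (x axis, kb, negative inside), over 113 borders; points are means over zygotes and bars are SDs, for aphidicolin (n = 9), DMSO (n = 11), untreated zygotes (n = 19) and Dam alone (n = 46). The 3 Dam-lamin B1 groups fall across the border to between 0.79 and 0.81 at 450 kb outside, and Dam alone rises to 1.39.

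None of 19 further measures per zygote passed the test, and the intervals bound the differences that could have been missed. Contacts covered 41.6% ± 2.28 of bins with aphidicolin and 40.9% ± 3.16 with DMSO (difference 0.684 percentage points, 95% interval −1.96 to 3.34, exact permutation p = 0.591). The lag 1 autocorrelation was 0.369 ± 0.078 and 0.379 ± 0.138 (exact permutation p = 0.841), and over 10 bins it was 0.193 ± 0.064 and 0.168 ± 0.087 (exact permutation p = 0.469). The mean OE of the 19 autosomes varied within a zygote with an SD of 0.181 log2 units with aphidicolin and 0.185 with DMSO (exact permutation p = 0.887). The adjusted p was 0.963 or higher for every one of these measures.

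Likeness to other maps came closest to a difference. The r with the mean untreated zygote ran from 0.334 to 0.433 with aphidicolin, with a median of 0.396, and from 0.147 to 0.471 with DMSO, with a median of 0.345. The groups overlapped, although all 9 aphidicolin zygotes lay above the DMSO mean of 0.330. The difference was 0.0576 (95% interval −0.00539 to 0.122, exact permutation p = 0.0729, adjusted p = 0.963). The r with 2-cell embryos was 0.164 ± 0.031 with aphidicolin and 0.186 ± 0.034 with DMSO (exact permutation p = 0.152), the r with oocytes 0.0811 ± 0.050 and 0.132 ± 0.086 (exact permutation p = 0.137), and the r with embryonic stem cells 0.2504 ± 0.030 and 0.228 ± 0.084 (exact permutation p = 0.486).

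Single zygotes resembled each other weakly, with a narrower range under aphidicolin. Across the 24022 bins, r between 2 aphidicolin zygotes had a median of 0.216 and ran from 0.180 to 0.254 over 36 pairs. Between 2 DMSO zygotes the median was 0.163 and the range 0.0854 to 0.365 over 55 pairs, and between the groups the median was 0.190 over 99 pairs. DMSO replicate 2, which held 82679 reads and 24.7% empty bins, had the lowest mean r with the other 19 zygotes, at 0.0956. These values share the bins and depend on depth, and no test was made of them. Averaged over zygotes, the aphidicolin profile correlated with the DMSO profile at r = 0.663 over bins and 0.806 over 2403 windows of 1 Mb. The window profiles had r of 0.855 (aphidicolin) and 0.805 (DMSO) with the untreated zygotes, and −0.531 and −0.476 with Dam alone.

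**Figure D3:**
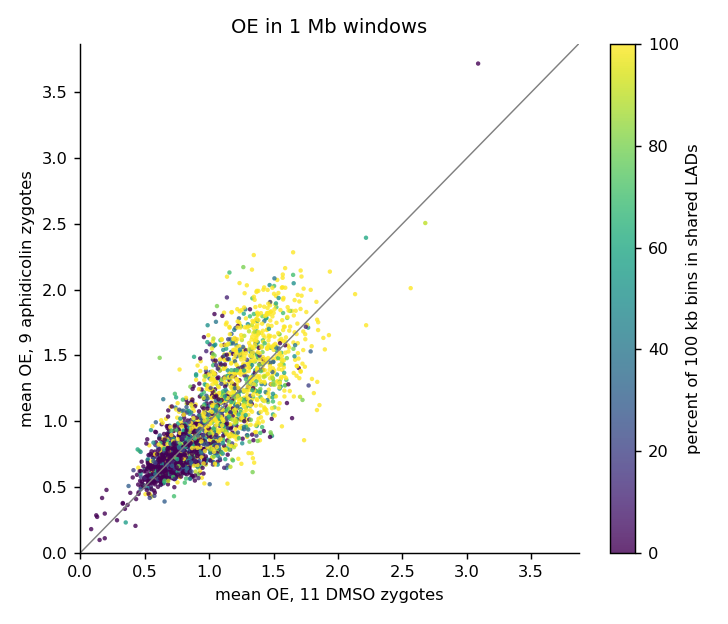
Mean OE over the 9 aphidicolin zygotes (y axis) against the mean OE over the 11 DMSO zygotes (x axis) in 2403 windows of 1 Mb, 1 point per window, coloured by the percent of its bins in shared LADs; the line marks equal values. The points lie along the line (r = 0.806), with windows wholly in shared LADs at a mean of 1.27 with aphidicolin and 1.22 with DMSO, and windows with none at 0.786 and 0.784.

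The bins in frequent contact under both treatments lay mostly in shared LADs. A bin was in contact in at least 8 of 9 aphidicolin zygotes at 1111 places, and in at least 9 of 11 DMSO zygotes at 1284 places. The sets had 280 bins in common, which is 25.2% of the aphidicolin set and 21.8% of the DMSO set. Of all bins, 4.62% were in the aphidicolin set and 5.35% in the DMSO set. Of these 280 bins, 257 (91.8%) lay in shared LADs, which make up 50.3% of all bins, and 2 lay in neither list. The joint set held 0.425 protein-coding gene midpoints per bin, against 0.855 over all bins, and had a mean OE of 2.22 in untreated zygotes. With Dam alone the joint set averaged 1.08, above the 0.823 of all shared-LAD bins, so these bins were also higher in the background. In all 20 zygotes, 14 bins were in contact, and 210 bins were in contact in none. The bins without contact lay in neither list in 61.4% of cases, against 32.004% of all bins, and held 1.23 gene midpoints per bin. Their mean OE was 0.429 in untreated zygotes and 0.742 with Dam alone, where all bins in neither list averaged 1.37, so they were low in the background too. The part of the background in either set was not tested.

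Few places differed between the treatments. In limma's moderated test on log2(OE + 0.25), 3 of 23815 bins passed an adjusted p of 0.05, which is 0.0126% of those tested: 2 were higher and 1 was lower with aphidicolin. At an unadjusted p under 0.05, 657 bins were higher (2.76%) and 666 lower (2.8%). No window of 1 Mb passed (0% of 2403). At an unadjusted p under 0.05, 92 windows were higher (3.83%) and 53 lower (2.21%). Fold changes on this scale understate the change of bins with low OE.

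The lower bin lay on chromosome 13 (chr13:65900001-66000000) in a TE-only LAD, and holds the predicted genes Gm17353 and Gm46425. Of the 9 aphidicolin zygotes, 8 were listed at 0 and 1 at 0.847. The DMSO zygotes ran from 0 to 2.98 with a median of 1.55, and 6 of 11 were in contact. Only the DMSO range reached above 0.847, and the groups overlapped at 0. The log2 difference was −2.32 (SE 0.461, limma adjusted p = 0.0073). With 1 aphidicolin zygote above 0, the bin met the filter of OE above 0 in at least 5 zygotes through the DMSO group, where it is high. Its adjusted p therefore depends on that filter. No lower bin was called without the filter, with OE above 0 required in at least 15 zygotes, or after thinning. The bin passed in 26 of 28 other alternatives in which it was followed. Untreated zygotes averaged 1.17 ± 1.53 here, with 9 of 19 at 0, and 31 of 46 zygotes with Dam alone were at 0. Without the zygotes under 100000 reads, the difference was −1.96 and the adjusted p 0.621.

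A higher bin on chromosome 3 (chr3:15600001-15700000) lay in a shared LAD and holds no protein-coding gene midpoint. Its OE ran from 0 to 12.3 with aphidicolin, with a median of 3.96, and from 0 to 4.53 with DMSO, with a median of 1.303. The groups overlapped, with contact in 8 of 9 and 6 of 11 zygotes. The log2 difference was 1.79 (SE 0.390, limma adjusted p = 0.0434). Untreated zygotes averaged 3.15 ± 4.42. The call was lost in 16 of 29 alternative analyses, among them the thinning of all zygotes to equal depth (limma adjusted p = 0.391).

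The other higher bin was near the start of chromosome 11 (chr11:3100001-3200000), outside both LAD lists, and holds the midpoint of Sfi1, which encodes a centrin-binding protein of the centrosome. Its OE was above 6 in every zygote of the 3 Dam-lamin B1 groups, far over the level of other bins, and averaged 36.7 ± 11.6 with Dam alone. Aphidicolin zygotes ran from 24.4 to 34.8 with a median of 28.2, and DMSO zygotes from 6.45 to 38.3 with a median of 22.7, so the aphidicolin values lay inside the DMSO range. The log2 difference was 0.45 (SE 0.0578, limma adjusted p = 6.01e-10). The small SE came from the fitted trend of variance with mean level: without that trend the adjusted p was 0.948.

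The windows with the smallest p-values in each direction lay wholly or in part in LADs of 1 or both lineages, and none passed. A window without a gene midpoint, wholly in shared LADs on chromosome 3 (chr3:23000001-24000000) ran from 1.48 to 2.58 with aphidicolin and from 0.404 to 1.87 with DMSO, with medians of 2.02 and 1.39. The 2 ranges overlapped in part, and the adjusted p by limma was 0.526. The window with Erbb4 (chr1:68000001-69000000), a receptor tyrosine kinase of the neuregulin pathway, ran from 1.67 to 2.48 and from 0.662 to 1.95, with all 9 aphidicolin zygotes above the DMSO mean (limma adjusted p = 0.526). The window with Crem, Cul2 and Bambi (chr18:3000001-4000000) ran from 0.291 to 1.06 with aphidicolin and from 0.524 to 1.84 with DMSO (limma adjusted p = 0.726). The window with Dio2 (chr12:90000001-91000000), which encodes an enzyme that activates thyroid hormone, had medians of 0.740 and 2.10, with adjusted p = 0.780 by limma.

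Very long genes of the kind that form fragile sites under aphidicolin in cultured cells were followed as a list. Several of them are neuronal genes that replicate late. Of their 25 bins, 15 were in shared LADs (60%, against 50.3% of all bins). Their mean OE was 1.33 ± 0.218 with aphidicolin, 1.23 ± 0.149 with DMSO, 1.17 ± 0.244 in untreated zygotes and 0.730 ± 0.135 with Dam alone. The zygotes ran from 0.959 to 1.67 with aphidicolin and from 1.09 to 1.58 with DMSO, so the groups overlapped. Of the 25 bins, 0 passed the adjusted threshold, 12 were higher with aphidicolin (48%, against 49.4% of all bins tested), and the median log2 difference was −0.03, against −0.01 over all bins tested. At an unadjusted p under 0.05, 1 bin was higher and 0 were lower, against 2.76% and 2.8% of all bins tested.

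Single genes of that list went in either direction. Fhit, a tumour suppressor at the most often broken fragile site in human cells, ran from 0.207 to 7.35 with aphidicolin (median 1.96) and from 0 to 2.42 with DMSO (median 1.53), with a log2 difference of 0.69 (SE 0.424, limma adjusted p = 0.922). Wwox, an oxidoreductase and tumour suppressor, was low in both groups, with medians of 0.540 and 0.210 and contact in 3 of 9 and 1 of 11 zygotes. Immp2l, a mitochondrial inner membrane peptidase, had medians of 0.692 and 1.28 and a log2 difference of −0.79 (SE 0.449, limma adjusted p = 0.902). In all of these the zygotes of both groups overlapped.

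Other long genes, several of them for neuronal adhesion and synapses, likewise gave no called difference. Cntnap2, a neurexin-like adhesion protein, had medians of 2.26 with aphidicolin and 1.64 with DMSO and was in contact in 6 of 9 and 7 of 11 zygotes. Dlg2, a postsynaptic scaffold, had medians of 2.43 and 2.16 and was in contact in 8 of 9 and 11 of 11. Lrp1b, a receptor of the LDL receptor family, had medians of 1.27 and 1.66. Csmd1, a complement control protein, had medians of 0.880 and 1.59, with contact in 4 of 9 and 9 of 11 zygotes. Magi2, a synaptic scaffold, had medians of 1.32 in both groups, Ctnna3, an alpha-catenin, 1.80 and 1.07, and Macrod2, which removes ADP-ribose from proteins, 1.63 and 1.06.

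Pcdh9, a protocadherin, had the smallest p of the 31 genes followed. It lay outside both lists and ran from 0.562 to 2.80 with aphidicolin (median 1.41) and from 0 to 3.35 with DMSO (median 0.790). Contact was seen in 8 of 9 aphidicolin, 3 of 11 DMSO and 16 of 19 untreated zygotes. With Dam alone, which does not report lamina contact, the OE reached 1 in 4 of 46 zygotes. The log2 difference was 0.93 (SE 0.448, unadjusted p = 0.0390, limma adjusted p = 0.870), so Pcdh9 did not pass. Over the wider list of 23 long adhesion and synapse genes, the mean OE was 1.48 ± 0.276 with aphidicolin, 1.31 ± 0.341 with DMSO and 0.607 ± 0.161 with Dam alone, with 13 of 23 bins higher (56.5%, against 49.4% of all bins tested) and a median log2 difference of 0.02.

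Genes of DNA replication and its checkpoint were mostly outside LADs (38 of 53 bins in neither list). Their mean OE was 0.879 ± 0.128 with aphidicolin, 0.801 ± 0.166 with DMSO, 0.848 ± 0.103 in untreated zygotes and 1.41 ± 0.140 with Dam alone. Of 53 bins, 34 were higher with aphidicolin (64.2%, against 49.4% of all bins tested), with a median log2 difference of 0.18, and 0 passed the adjusted threshold. The zygotes ran from 0.714 to 1.06 and from 0.577 to 1.00, and so overlapped. The bin of Orc3, a subunit of the origin recognition complex, shared with Akirin2, had the largest difference of the list, 1.28 (SE 0.455), with contact in 7 of 9 and 1 of 11 zygotes, but did not pass (limma adjusted p = 0.794).

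Single replication genes were measured in both groups without a called difference. Pcna, the sliding clamp of the replicative polymerases, had medians of 0.822 and 0.823, and Mcm2, a subunit of the replicative helicase, 0.760 and 0.755. Pold1 and Pole, the catalytic subunits of the 2 polymerases that aphidicolin inhibits along with polymerase alpha, had medians of 0.465 and 0.727, and of 0.614 and 0.385. Atr, the kinase that senses stalled forks, ran from 0.460 to 3.29 with aphidicolin (median 1.36) and from 0.156 to 3.83 with DMSO (median 0.930), although its bin lay in neither list. Chek1, a kinase that Atr activates, had medians of 0.880 and 1.05 in a TE-only bin. Of these genes none passed (limma adjusted p of 0.941 or higher), and all had overlapping groups.

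**Figure D4:**
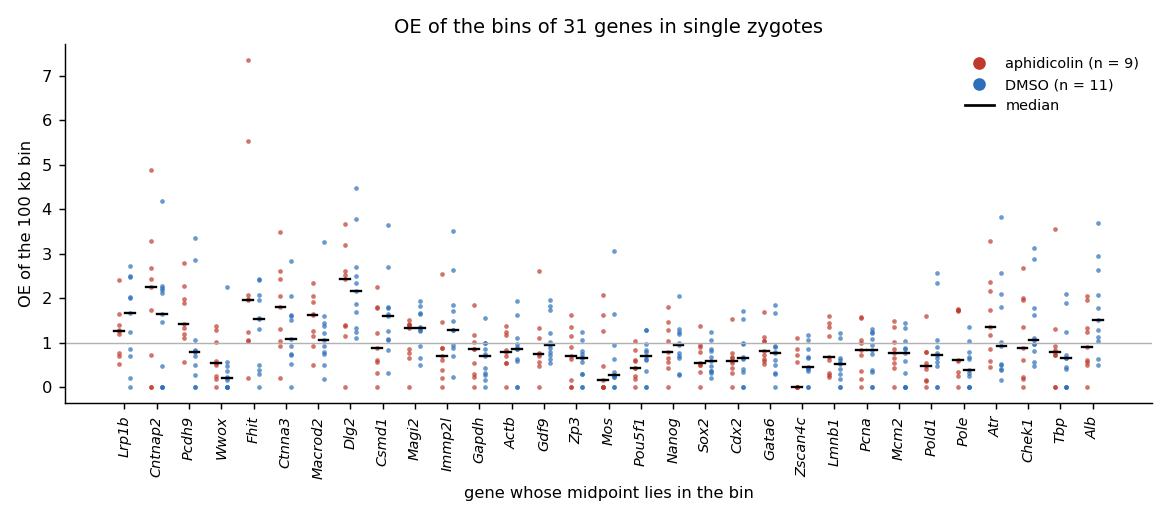
OE of the 100 kb bin (y axis) of each of 31 genes (x axis) in single zygotes, 1 point per zygote, aphidicolin (n = 9) and DMSO (n = 11), with black bars at the medians. The points of the groups overlap for every gene, from Zscan4c with medians of 0 and 0.453 to Dlg2 with medians of 2.43 and 2.16.

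Olfactory and vomeronasal type 2 receptor genes, large families that lie mostly in LADs, had a mean OE above 1 with both treatments and below 1 with Dam alone. The 338 bins with olfactory receptor genes, which detect odorants, were 79.9% in shared LADs and averaged 1.32 ± 0.174 with aphidicolin, 1.18 ± 0.172 with DMSO, 1.36 ± 0.167 in untreated zygotes and 0.778 ± 0.087 with Dam alone. Single zygotes ran from 1.09 to 1.64 and from 0.958 to 1.46, and overlapped. Of these bins 217 (64.2%) were higher with aphidicolin, with a median log2 difference of 0.13, 16 were higher and 5 lower at an unadjusted p under 0.05, and 0 passed the adjusted threshold. Over all bins tested, 49.4% were higher, with 2.76% higher and 2.8% lower at that p. Olfactory receptor genes sit in clusters, so neighbouring bins are not independent. Vomeronasal type 2 receptors averaged 1.33 ± 0.208 with aphidicolin, 1.27 ± 0.263 with DMSO and 0.621 ± 0.117 with Dam alone over 97 bins. Type 1 receptors averaged 0.922 ± 0.180, 0.939 ± 0.194 and 0.645 ± 0.130 over 102 bins, so they were below 1 with Dam alone as well. Of these 102 bins, 64.7% were in shared LADs, and 78 passed the filter for testing.

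Housekeeping, ribosomal protein, Hox, pluripotency, oocyte and lamina genes had a mean lamin B1 OE below 1 with both treatments and above 1 with Dam alone. Housekeeping genes averaged 0.798 ± 0.181 with aphidicolin, 0.828 ± 0.246 with DMSO and 1.65 ± 0.350 with Dam alone. Ribosomal protein genes averaged 0.773 ± 0.130, 0.744 ± 0.171 and 1.62 ± 0.167, and the Hox clusters of body-axis regulators 0.717 ± 0.295, 0.654 ± 0.269 and 1.49 ± 0.337. Pluripotency genes averaged 0.833 ± 0.109 and 0.820 ± 0.278, oocyte and maternal-effect genes 0.760 ± 0.256 and 0.839 ± 0.258, and genes of the lamina itself 0.826 ± 0.192 and 0.760 ± 0.202. Of the 15 lamina bins, 5 were higher with aphidicolin (33.3%, against 49.4% of all bins tested), with a median log2 difference of −0.14. The genes of embryonic genome activation differed from these lists, with 13 of 22 bins in shared LADs and a mean OE of 1.29 ± 0.370 with aphidicolin, 1.39 ± 0.279 with DMSO, 1.32 ± 0.254 in untreated zygotes and 1.48 ± 0.273 with Dam alone. The Zfp genes, which encode zinc finger proteins, averaged 0.942 ± 0.091 and 1.02 ± 0.094, with 108 of 262 tested bins higher (41.2%, against 49.4% of all bins tested) and a median log2 difference of −0.08. Across the 21 lists the median log2 difference lay between −0.16 (defensins) and 0.18 (replication genes), and 0 bins of any list passed the adjusted threshold.

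Genes of the early embryo gave no exception. Zscan4c, which is switched on at genome activation, had medians of 0 and 0.453 and was in contact in 1 of 9 and 2 of 11 zygotes. Pou5f1, Nanog and Sox2, transcription factors of pluripotency, had medians of 0.435 and 0.704, of 0.794 and 0.935, and of 0.538 and 0.593. Cdx2 and Gata6, regulators of trophectoderm and primitive endoderm, had medians of 0.588 and 0.646 and of 0.809 and 0.758. Gdf9, an oocyte growth factor, and Zp3, a zona pellucida protein, had medians of 0.741 and 0.949 and of 0.691 and 0.651. Their adjusted p-values by limma were 0.945 or higher, and the groups overlapped for each.

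Chromosome 6 had a higher mean OE with aphidicolin, in a comparison of the 19 autosomes that was added after the values were seen. Its mean OE ran from 1.02 to 1.22 with aphidicolin (median 1.08) and from 0.615 to 1.07 with DMSO (median 0.987). The groups overlapped, with all 9 aphidicolin zygotes above the DMSO mean of 0.948 ± 0.136, and their own mean was 1.10 ± 0.066. The log2 difference was 0.23 (95% interval 0.07 to 0.40, exact permutation p = 0.00249, adjusted p = 0.0474 over 19 autosomes). Untreated zygotes averaged 1.01 ± 0.116 and zygotes with Dam alone 0.973 ± 0.085. The difference lay along the whole chromosome: 0.23 in the proximal and 0.23 in the distal part, 0.29 in shared-LAD bins and 0.19 in bins outside both lists. The lowest DMSO value was from replicate 2, and without it the difference was 0.17 (adjusted p = 0.0362). The adjusted call was lost when any 1 of 13 zygotes was left out (each of the 9 aphidicolin zygotes, and DMSO replicates 3, 5, 7 and 8), with adjusted p up to 0.169 over those omissions. The other 18 autosomes had exact permutation p-values of 0.120 or higher (adjusted p of 0.655 or higher).

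**Figure D5:**
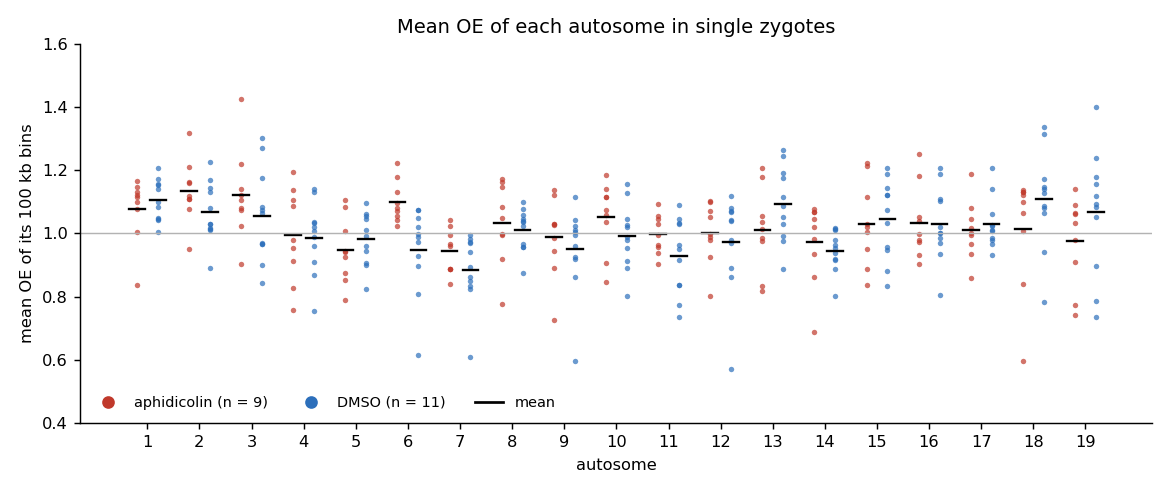
Mean OE of the 100 kb bins of each autosome (y axis) in single zygotes, 1 point per zygote, aphidicolin (n = 9) and DMSO (n = 11), with black bars at the group means. On chromosome 6 the aphidicolin zygotes run from 1.02 to 1.22 and the DMSO zygotes from 0.615 to 1.07, so the groups overlap in part. On the other autosomes the groups lie across each other.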

How the data were processed

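Single zygotes were profiled by DamID, and the submitters' processing notes name cutadapt, BWA 0.7.12 and the build mm10. The authors deposited 1 table of ratios of observed to expected reads (OE) per 100 kb bin and cell, and lists of LAD positions for ICM and TE. The expected number and the LADs were made by methods not given in the sources used here. Groups came from the sample titles. The table's 314 columns of other samples were not used. Without the 617 of 24639 bins that hold no value, 24022 bins were used. A bin counted as LAD if at least 50% was covered.

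Values per zygote were compared by exact permutation tests of the difference in means, two-sided (100000 resamples for 11 against 19 zygotes), with Benjamini-Hochberg adjustment within each family. The smallest p that 9 against 11 zygotes can give is 1.19e-05. Bins with OE above 0 in at least 5 of the 20 zygotes, and windows of at least 5 bins, were tested on log2(OE + 0.25) with limma 3.58.1, with a mean-variance trend and Benjamini-Hochberg adjustment over all bins or windows. Scripts ran in Python 3.11.15 and were tested on simulated data. Recovered depths came from the step of each zygote's ratios, with all low values whole within a tolerance of 0.02.

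The members and gene lists were chosen with earlier results of these data known. The genes and regions named are 31 listed genes, by the bin of the gene midpoint (1 more is not reported here), the 5 bins and 5 windows with the smallest p in each direction, and the extreme bins of each list. Alternatives covered pseudocount, filter, normalization, depth, LAD list and omission of zygotes. The chromosome comparison, the spread test and the fit without a variance trend were added after the data were seen. Zygotes of equal replicate number were treated as unpaired in the main tests, and the labels name no pairing.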

Additional observations from a re-analysis of the deposited data

Results flagged for a closer look

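Among the 9 aphidicolin zygotes, 14 of 101 values tested had 1 zygote far from the rest, with a gap to the next zygote above Dixon's critical share of the group's range. The rule assumes normally distributed values, while single-bin OE has a floor at 0 and several of the values are related. Bins picked for a small p in this comparison are among the 14, as with Scaper, Pramel48 and the lower called bin. The count was therefore not set against chance. The rule was applied to the aphidicolin zygotes alone, and the DMSO zygotes were not screened.

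Aphidicolin replicate 8 stood apart in 5 of these values, beginning with the lowest depth (15.17 in log2 reads, next 16.25) and the highest share of empty bins (40.8%, next 22.9%). It also had the highest short-LAD contrast (0.77, next 0.38), the highest mean OE of the primitive endoderm genes (1.34, next 0.909) and the highest OE in the Scaper bin on chromosome 9 (7.04, next 3.89). The part of depth in these values was not tested.

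Replicate 9 had the highest autocorrelation at lag 10 (0.344, next 0.217) and the highest OE in the bin of Tbp, the TATA-binding protein (3.56, next 1.31). Replicate 2 had the lowest mean OE of chromosome 1 (0.838, next 1.00) and the highest OE in the Cdx2 bin (1.52, next 0.769). Replicate 6 had the highest mean OE of the vomeronasal type 2 receptors (1.83, next 1.37), and replicate 4 the highest OE in the Gdf9 bin (2.61, next 1.32). Replicate 1 had the highest OE in the Pold1 bin (1.59, next 0.790) and the sole OE above 0 in the lower bin of chromosome 13 (0.847). Replicate 7 had the highest OE in the Pramel48 bin of chromosome 5 (4.25, next 0.721).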

How the results depend on the processing

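The LAD contrast passed no threshold in any of 28 alternatives, with p from 0.152 to 0.997. The alternative of bins covered 100% by both lists returned the main value, so it was no separate check. The sign of the difference changed in 8 of the alternatives, among them the share of bins in contact (−0.08) and the omission of zygotes under 100000 reads (−0.13). With 1 zygote left out it ranged from −0.02 to 0.10. None of the 436 alternative values of the further measures changed side of the threshold, and 53 changed sign. The number of called bins was 0 in limma without the filter or with quantile normalization and in Fisher's exact test (1358, 1313 and 596 bins at an unadjusted p under 0.05), and 1 after thinning, without the zygotes under 100000 reads and without the variance trend. With 1 zygote left out it was 2 to 3. No alternative called a window. With the replicate number as a block the LAD contrast difference was 0.17 (exact sign-flip test over 9 pairs of equal number, p = 0.152). This block leaves out DMSO replicates 10 and 11, which have no aphidicolin zygote of their number and had high contrasts, 1.25 and 1.35. Its difference is therefore over fewer DMSO zygotes than the main one. The same pairs and test were used for the block on chromosome 6. Zygotes of equal number had correlations from −0.0375 to 0.0456, and 0 of 9 aphidicolin zygotes correlated best with their own number. Whether such zygotes shared a litter or day was not tested. For chromosome 6, the call was lost without zygotes under 100000 reads (0.18, adjusted p = 0.125), with the replicate block (0.26, 0.148), for the share of bins in contact (0.24, 0.305), for bins in both lists (0.29, 0.139) and for bins in neither (0.19, 0.971). With 1 zygote left out it ranged from 0.168 to 0.248. The spread of the LAD contrast gave exact permutation p from 0.0412 to 0.169 with 1 zygote left out. The cause of these shifts was not tested. Depth limits single bins: 4.87% to 40.8% of bins were empty in the aphidicolin zygotes and 2.31% to 36.3% in the DMSO zygotes.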
